A study of Mus musculus with 4 samples.

Results

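The genes described here are Ccl3, Ccl4, Ccl5 and Xcl1, 4 chemokine genes chosen by symbol from the 31053 genes of the count tables; all 4 were found. Their UMIs were counted in immune cells taken from mouse brain after stroke. A UMI (unique molecular identifier) marks 1 captured RNA molecule. C57/BL6 mice had undergone transient middle cerebral artery occlusion (tMCAO), a model in which a brain artery is blocked for a time and then reopened. All groups shared this strain and this surgery: 2 libraries came from day 5 after tMCAO and 2 from day 14, with no unoperated or sham group. CD45high cells of the perfused ischemic hemisphere were sorted by flow cytometry and run on the 10x Single Cell 3' platform. How many mice went into a library is not stated, so the spread between the 2 libraries of a day may be technical.

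Chemokines are small secreted proteins that steer leukocyte migration through G protein-coupled receptors. Ccl3, Ccl4 and Ccl5 encode CC chemokines, which draw in monocytes, T cells and NK cells; Ccr1 is a receptor of Ccl3 and Ccl5. Xcl1 encodes lymphotactin, the ligand of Xcr1, a receptor carried by the dendritic cells that cross-present antigen to CD8 T cells. NK cells and activated CD8 T cells are the known makers of Xcl1 and major makers of Ccl5, whereas Ccl3 and Ccl4 are made by activated microglia, macrophages, neutrophils and lymphocytes alike.

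On GRCm38 (GENCODE vM21), the 3 CC genes lie together on chromosome 11 and Xcl1 lies on chromosome 1. Ccl5 occupies chr11:83525778-83530518 on the minus strand and Ccl3 chr11:83647844-83649355 on the same strand. Ccl4 occupies chr11:83662584-83664683 on the plus strand, 13228 bases from Ccl3. Xcl1 occupies chr1:164931644-164935527 on the minus strand, where the annotated gene Gm20743 overlaps it. The effect of this overlap on the Xcl1 counts was not tested. All are protein coding with 3 exons, and none shared a 50-base stretch of its last 400 transcript bases with another gene, so 3' tags of Ccl3 and Ccl4 can be told apart. RefSeq promoter sequence was at hand for Ccl3 and Xcl1, a gene with mostly myeloid UMIs and one with mostly lymphoid UMIs below; the 250 bases before each start are shown from 5′ to 3′ on the gene's strand, with the hexamer TGTGGT (or ACCACA on the other strand), the core letters bound by Runx factors, in capitals. Ccl3 is read from chr11:83649379-83649628 and Xcl1 from chr1:164935523-164935772 (GRCm38.p6, minus strand).
Ccl3: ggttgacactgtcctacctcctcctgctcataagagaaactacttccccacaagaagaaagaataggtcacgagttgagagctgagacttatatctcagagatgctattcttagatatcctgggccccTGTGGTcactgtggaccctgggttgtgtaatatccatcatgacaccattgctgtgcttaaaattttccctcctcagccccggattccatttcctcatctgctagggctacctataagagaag
Xcl1: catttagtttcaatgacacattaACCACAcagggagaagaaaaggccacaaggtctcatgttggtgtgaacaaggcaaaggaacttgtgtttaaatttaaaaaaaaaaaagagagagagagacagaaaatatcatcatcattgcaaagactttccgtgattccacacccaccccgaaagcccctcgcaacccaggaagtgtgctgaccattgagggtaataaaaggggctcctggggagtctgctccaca
Each promoter held 1 such hexamer, as did 14.1% of the 32851 promoters of the same length. On either strand, neither held the AP-1 letters TGANTCA, found in 6.75% of all promoters, or TATAAA, found in 12.4%. These are matches of letters in a window and say nothing of binding.

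Each cell was assigned to a cell type by a marker gate, a minimum number of UMIs from a short list of defining genes. The libraries held 2313 to 3486 barcodes and 9288054 to 13610119 UMIs, with a median of 2882 to 4230 UMIs per barcode, and 10841 cells with at least 200 genes and at most 10% mitochondrial UMIs were used. Library pairs shared 5 to 16 barcodes. NK cells (defined by genes such as Ncr1 and Klrb1c, without Cd3 UMIs) numbered 109 and 121 on day 5 and 261 and 250 on day 14. T cells (Cd3d, Cd3e, Cd3g, Trac) numbered 51 and 49 on day 5 and 762 and 421 on day 14. Microglia (Tmem119, P2ry12, Sall1 and others, with C1q genes) numbered 1111 and 1796 on day 5 and 255 and 177 on day 14. CD45 itself, encoded by Ptprc, stood at 141 to 182 CPM in microglia and 571 to 869 CPM in NK cells. Since the sort kept CD45high cells, and microglia carry less CD45 in general, the shares of cells and of UMIs below describe what passed the gate, not the brain. Lymphocytes that met another gate besides that of monocytes were kept apart as mixed. So were lymphocytes with over 2% of UMIs from a phagocyte panel (Apoe, C1qa, C1qb, C1qc, Lyz2, Ctsb and Cst3), which made 802 mixed cells in all.

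Most Ccl3 and Ccl4 UMIs lay in microglia on day 5 and were spread over more myeloid cells on day 14, while the Ccl5 shares of NK and T cells overlapped between the days and these cells held most of the Xcl1 UMIs in 3 of 4 libraries. Both statements on NK and T cells rest on the gating rule used, which was revised after the overlaps of the gates were seen; the first rule set aside more lymphocytes as mixed cells. Microglia held 75.6% and 78.9% of the Ccl3 UMIs on day 5 and 39.6% and 22.4% by day 14, against 2.2%, 1.21%, 6.94% and 6.39% in NK and T cells together. For Ccl4 the day 5 microglial shares were 72.6% and 74.7%, those of day 14 32.2% and 18.2%. No overlap between days was seen for either gene, and the exact permutation test gave p = 0.333, the smallest that 2 against 2 libraries allow; the number of microglia sorted fell with the shares. NK and T cells held 58.4% and 46.6% of the Ccl5 UMIs on day 5 and 53.7% and 44.1% on day 14. Here the days overlapped, but under the first gating rule the shares were 58.9%, 46.5%, 37.4% and 25.7%, without overlap. Microglia held 7.06%, 14.2%, 5.33% and 5.47% of them in the same order. For Xcl1 the NK and T cell share went from 69.0% and 47.8% to 81.9% and 80.3% between the days, with 45.9% of the UMIs of day 5 replicate 2 in mixed cells; under the first rule it was 66.7%, 41.8%, 62.2% and 40.5%, with overlap. Microglia held at most 4.60% of the Xcl1 UMIs of any library.

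**Figure D1:**
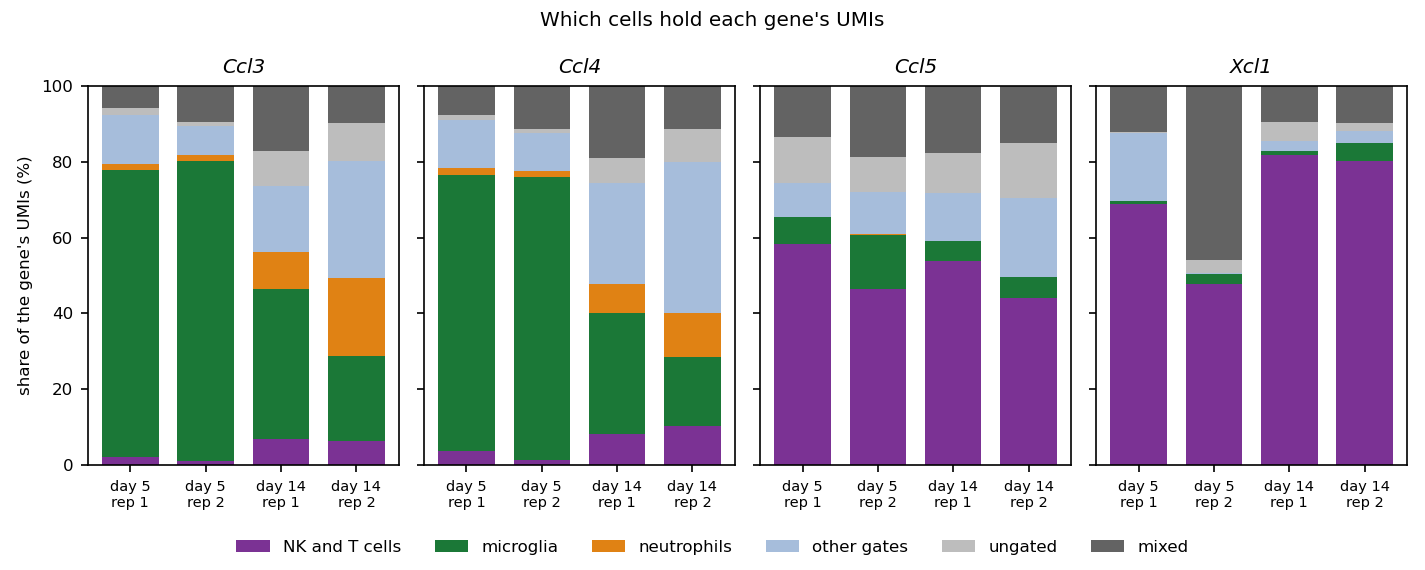
Share of each gene's UMIs (percent, vertical axis) held by NK and T cells, microglia, neutrophils, other gates, ungated cells and mixed cells in each of the 4 libraries. Microglia make up 72.6% to 78.9% of the Ccl3 and Ccl4 bars on day 5 and 18.2% to 39.6% on day 14, whereas NK and T cells make up 44.1% to 58.4% of the Ccl5 bars on both days under the revised gating rule.

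Levels were expressed as CPM, the counts of a gene scaled to a fixed total of UMIs, over the summed cells of a gate. Ccl5 and Xcl1 were higher in NK cells than in microglia by this measure. With library as a block, NK cells stood above microglia by 4.11 ± 0.57 (SE) on the log2 scale for Ccl5 (edgeR adjusted p = 3.97e-07) and by 6.32 ± 0.49 for Xcl1 (edgeR adjusted p = 2.15e-12). Ccl3 and Ccl4 were higher in microglia than in NK cells: the NK over microglia log2 difference was -1.70 ± 0.26 for Ccl3 (edgeR adjusted p = 2.01e-06) and -1.01 ± 0.22 for Ccl4 (edgeR adjusted p = 3.38e-04). Of all genes tested, 47.2% passed in this comparison, so passing it is common. T cells against microglia gave -4.31 ± 0.31 for Ccl3, -3.86 ± 0.26 for Ccl4, 2.76 ± 0.52 for Ccl5 and 3.42 ± 0.50 for Xcl1, all past the threshold of 0.05 as were 50.5% of all genes.

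**Figure D2:**
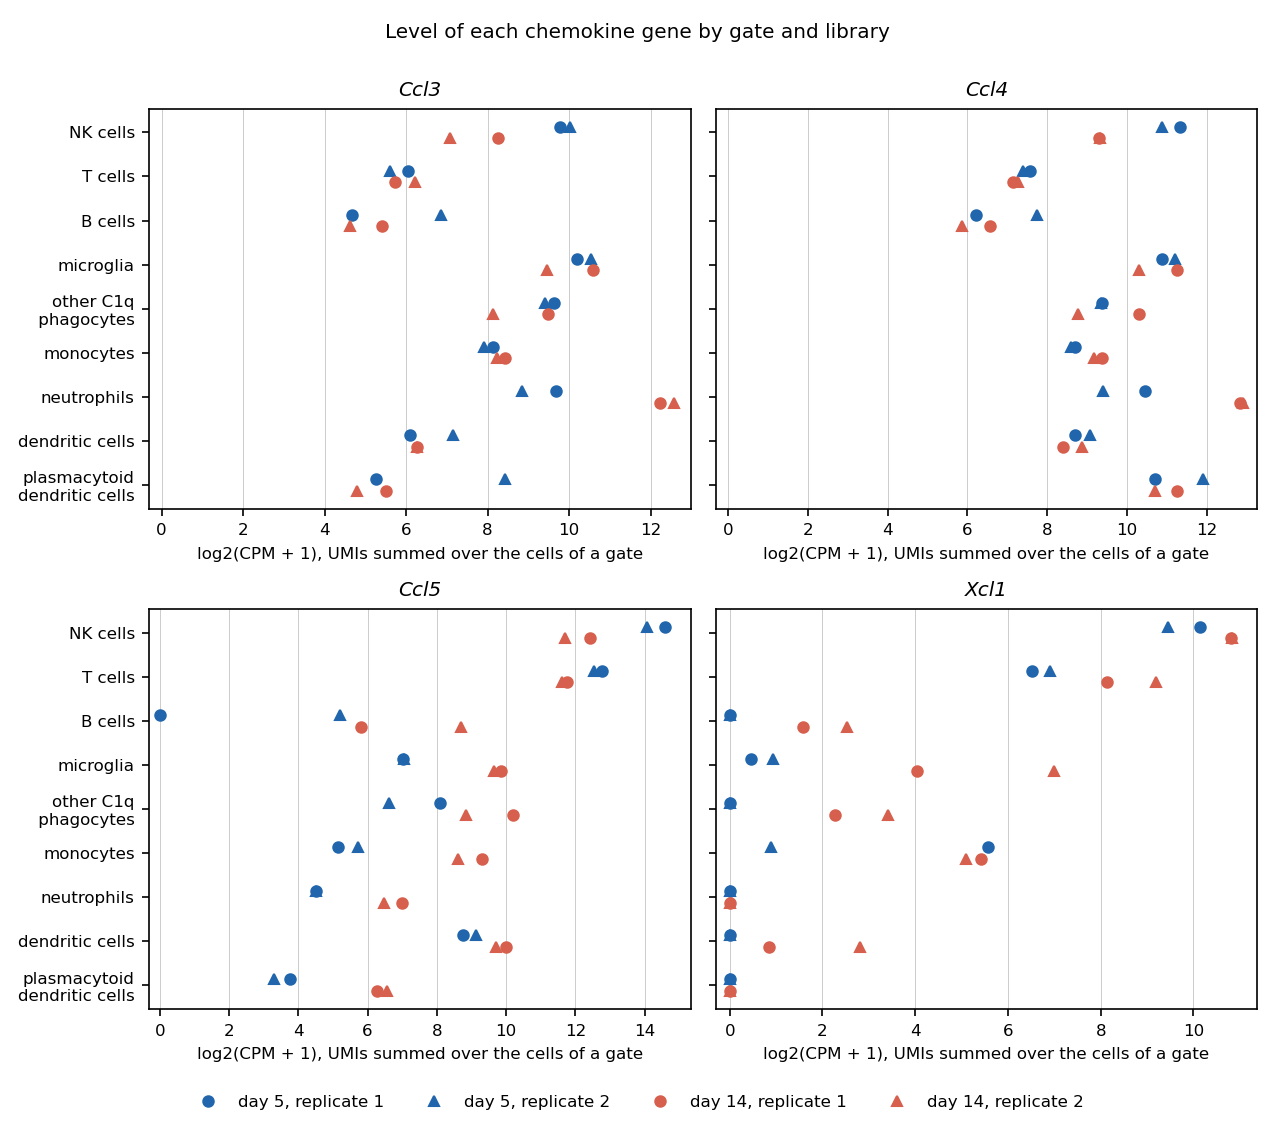
Level of each gene as log2(CPM + 1) (horizontal axis) in the summed cells of 9 gates (vertical axis), with 1 point per library, circles for replicate 1, triangles for replicate 2, blue for day 5 and red for day 14. NK cells have the highest Ccl5 points of day 5 and the highest Xcl1 points of both days, and neutrophils have the highest Ccl3 and Ccl4 points on day 14.

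In NK cells, the cytotoxic lymphocytes of innate immunity, Ccl5, Ccl3 and Ccl4 fell between day 5 and day 14 while Xcl1 rose. Day 5 libraries held Ccl5 at 24820 and 17130 CPM, day 14 libraries at 5519 and 3346 CPM, without overlap. The log2 change was -2.12 ± 0.19 (edgeR adjusted p = 6.85e-07), where 5.36% of the 5036 genes tested in NK cells passed. Among these 5036 genes ordered from the most raised to the most lowered, Ccl5 was number 5024. Ccl3 went from 884 and 1032 CPM on day 5 to 306 and 135 CPM on day 14, a log2 change of -2.02 ± 0.26 (edgeR adjusted p = 9.08e-05). Ccl4 went from 2582 and 1879 CPM to 624 and 642 CPM, a log2 change of -1.70 ± 0.16 (edgeR adjusted p = 1.12e-06). Both genes encode inflammatory CC chemokines, and their days did not overlap. Xcl1, the ligand of Xcr1, moved the other way, from 1134 and 704 CPM to 1783 and 1819 CPM. Its log2 change was 1.09 ± 0.17 (edgeR adjusted p = 6.70e-04), and it was number 220 of 5036 in the same order.

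The same directions held per NK cell when each cell was thinned to 1000 UMIs, which takes out the greater depth of the day 14 cells (median 1478 and 1144 UMIs per NK cell on day 5, 2103 and 3004.5 on day 14); 14 and 38 day 5 cells were too shallow to thin. At this depth 94.7% and 89.2% of NK cells had a Ccl5 UMI on day 5 and 78.5% and 67.6% on day 14. Without thinning the shares were 97.3%, 94.2%, 90.0% and 83.6%, so most NK cells carried Ccl5 on both days, and the median number of Ccl5 UMIs in a cell that had any went from 39 and 21 on day 5 to 10 and 9 on day 14. Ccl3 was found in 40.0% and 41.0% of thinned NK cells on day 5 and 13% and 10.0% on day 14. For Ccl4 the shares were 51.6% and 59.0%, then 26.4% and 25.2%. Both were lower on day 14 in share of cells as in level. Xcl1 was found in 28.4% and 33.7% of thinned NK cells on day 5 and in 64.0% and 65.2% on day 14 (unthinned 37.6%, 28.9%, 78.9% and 84.8%). Of the NK cells with a Ccl5 UMI, 36.8% and 25.4% also had an Xcl1 UMI on day 5 and 77.4% and 87.6% on day 14, unthinned. These shares were close to those of all NK cells. A Ccl5 UMI was found in 106 of 109, 114 of 121, 235 of 261 and 209 of 250 NK cells. Among the few without one the Xcl1 shares were 66.7%, 85.7%, 92.3% and 70.7% in the same order. Those few cells were deeper, at a median of 8386, 2142, 3040 and 4472 UMIs against 1460, 1104, 2017 and 2795. The part of depth in their Xcl1 shares was not tested. For the 4 thinned shares, permuting the 2 against 2 libraries exactly gave p = 0.333 each, which is as low as this design goes; the co-detection was not tested.

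**Figure D3:**
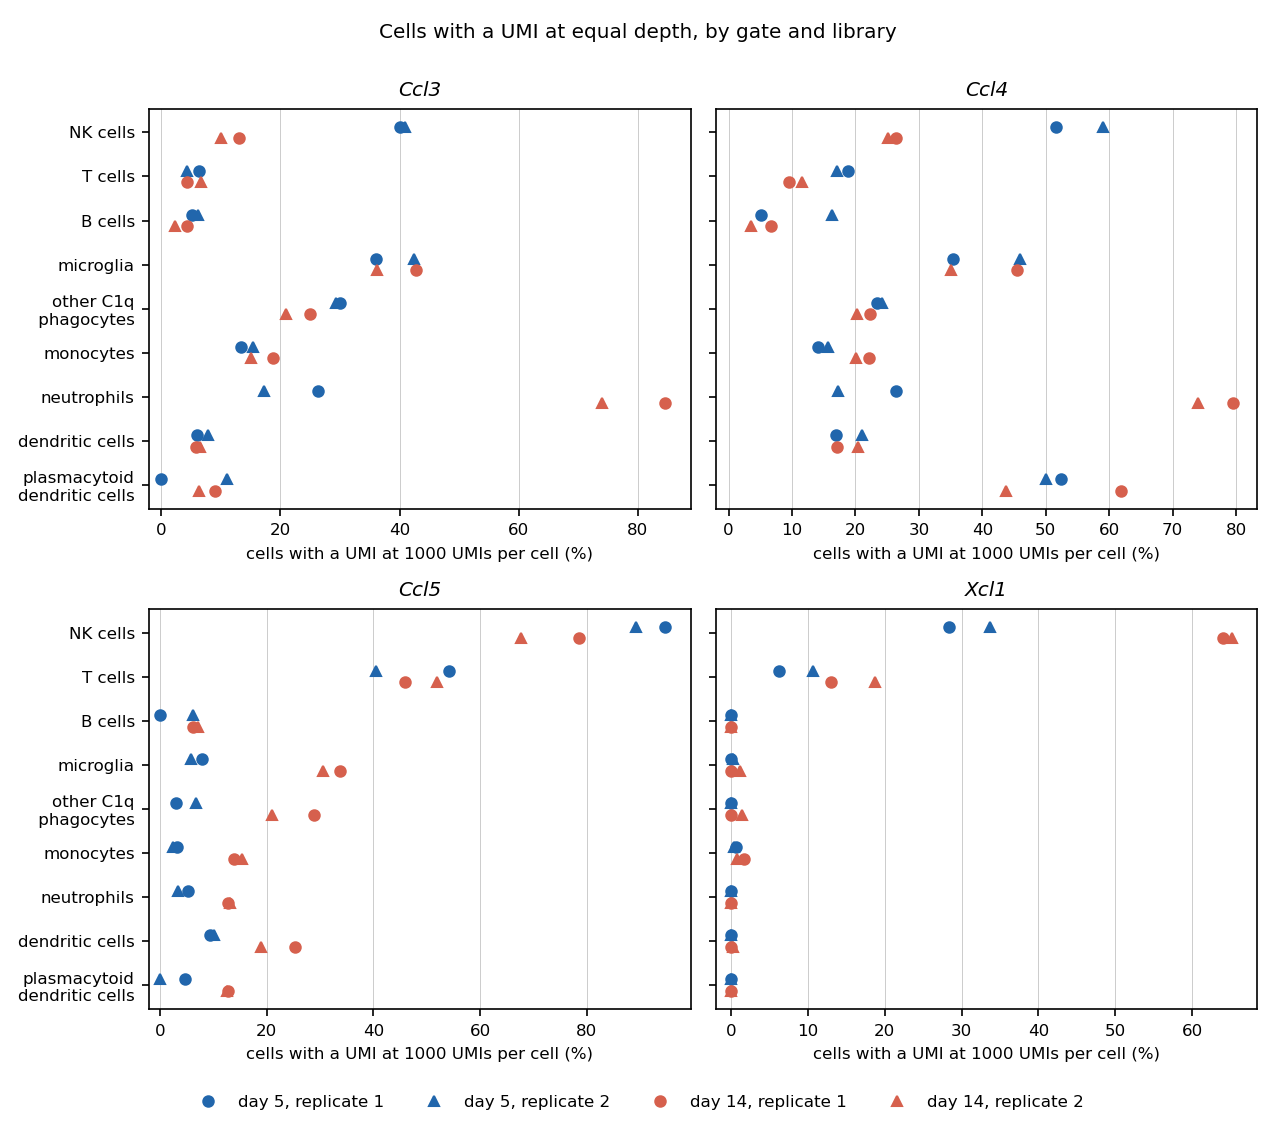
Percent of cells with at least 1 UMI of each gene after thinning every cell to 1000 UMIs (horizontal axis) in 9 gates (vertical axis), with 1 point per library. In NK cells the day 14 points lie to the left of the day 5 points for Ccl3, Ccl4 and Ccl5 and to the right for Xcl1, and B cells lie between 0% and 7.14% for Ccl5 in all 4 libraries.

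Other genes of the NK cells gave a setting for these changes. Of 9 genes for cytotoxic effectors and their regulators, 6 fell and none rose, with a median log2 change of -0.78 against 0.00 over all genes (0.002). Gzma, which encodes granzyme A, went from a mean of 11000 to 2341 CPM (log2 change -2.11), and Prf1, which encodes perforin, from 856 to 224 CPM (-1.81). Klrg1, a receptor of mature NK cells, had a log2 change of -2.99. Of 12 tested NF-kappa B and interferon regulators only Irf7 rose (1.67), and of 10 early response genes only Ier2 fell (-0.68). None of the 3 other CC chemokine genes tested in NK cells passed. Among lymphocyte panel genes, Thy1 (2.25) and Ltb (1.74) rose and 3 of the 12 tested fell. RNA of other cells moved with the day too: the microglia markers summed to 190 and 304 CPM in NK cells on day 5 and to 78.3 and 52.5 CPM on day 14, and C1qa, C1qb and C1qc fell, while NK markers summed to 7351, 7247, 5666 and 5172 CPM. The part of that RNA in the Ccl3 and Ccl4 values of NK cells was not tested.

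In T cells only Ccl5 and Xcl1 differed between the days, and both calls were less firm than in NK cells. Ccl5 stood at 7056 and 5967 CPM on day 5 and at 3499 and 3132 CPM on day 14, a log2 change of -0.89 ± 0.11 (edgeR adjusted p = 1.36e-04) where 0.617% of the 6483 genes tested passed. The days did not overlap in level, but the share of thinned T cells with a Ccl5 UMI overlapped, at 54.2% and 40.4% on day 5 against 45.9% and 52.0% on day 14. With day 5 replicate 2 left out the adjusted p for Ccl5 was 0.0762, and with mixed cells kept the log2 change was 0.19. Xcl1 went from 90.3 and 119 CPM to 279 and 583 CPM, a log2 change of 2.15 ± 0.40 (edgeR adjusted p = 0.0129), and with day 5 replicate 2 left out its adjusted p was 0.716. Ccl3, at 47.7 to 73.9 CPM, and Ccl4, at 140 to 189 CPM, gave log2 changes of 0.17 (edgeR adjusted p = 0.965) and -0.21 (edgeR adjusted p = 0.895). The share of thinned T cells with a Ccl3 UMI, 4.26% to 6.65%, was close to the 2.38% to 6.12% of B cells. The part of RNA of other cells in it was not tested. None of 9 cytotoxic genes passed in T cells. In B cells only Ccl4 was high enough to test, at 73.5, 215, 93.2 and 56.8 CPM, and it did not pass (-1.01, edgeR adjusted p = 0.414, with 1.99% of genes passing).

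Within the T cell gate, Ccl5 was highest in CD8 T cells and Xcl1 in the T cells that also carried NK genes. CD8 T cells (14, 13, 168 and 106 cells) held Ccl5 at 16120 and 13070 CPM on day 5 and at 6833 and 6146 CPM on day 14, and 84.5% to 100% of them had a Ccl5 UMI at 1000 UMIs. CD4 T cells, which numbered only 4 and 3 on day 5, held it at 1722, 247, 1541 and 732 CPM. CD8 cells are thus the higher group in each library. Xcl1 stood at 265, 431, 789 and 1379 CPM in T cells with 3 or more UMIs of NK genes and at 0, 57.2, 80.3 and 129 CPM in the other T cells. Each library put the NK gene-bearing T cells higher. A captured pair of a T cell and an NK cell would fall among them, since the NK gate took no cell with a Cd3 UMI. The part of such pairs in these values was not tested. B cells, which serve here as the lymphocytes that lack these genes, had at most 4.74 CPM of Xcl1 and none with an Xcl1 UMI at 1000 UMIs.

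In microglia, the resident macrophages of the brain, Ccl3 and Ccl4 were present on both days at overlapping levels, and Ccl5 rose. Ccl3 stood at 1173 and 1493 CPM on day 5 and at 1544 and 699 CPM on day 14. Its log2 change was -0.11 (edgeR adjusted p = 0.922), and 2.86% of the 9794 genes tested in microglia passed. Ccl4 stood at 1884 and 2362 CPM on day 5 and at 2434 and 1256 CPM on day 14, a log2 change of -0.06 (edgeR adjusted p = 0.956). The 2 day 14 libraries disagreed with each other more than the days did: without day 14 replicate 1 the log2 change was -0.80 for Ccl3 (edgeR adjusted p = 0.00171) and -0.63 for Ccl4 (edgeR adjusted p = 0.0103), and without day 14 replicate 2 it was 0.34 and 0.33. At 1000 UMIs, 36.1% and 42.5% of microglia had a Ccl3 UMI on day 5 and 42.8% and 36.2% on day 14, and Ccl4 was found in 35.4%, 46.0%, 45.5% and 35.0%. Among microglia with a Ccl3 UMI, 73.3% to 81.9% also had a Ccl4 UMI, against 30.0% to 36.8% of those without, unthinned. Cells with a Ccl3 UMI were deeper, at a median of 4895, 3674, 4214 and 6930 UMIs against 2620, 2456, 2424 and 4562. The part of depth in this co-detection was not tested. Core microglia, cells with the gate genes at 0.5% or more of their UMIs, held more of Ccl3, at 1866, 2022, 2626 and 1084 CPM.

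Ccl5 in microglia stood at 130 and 133 CPM on day 5 and at 933 and 809 CPM on day 14, without overlap. The log2 change was 2.87 ± 0.12 (edgeR adjusted p = 2.15e-05), number 61 of 9794 genes from the most raised. At 1000 UMIs, 7.78% and 5.84% of microglia had a Ccl5 UMI on day 5 and 33.7% and 30.5% on day 14 (unthinned 16.6%, 12.6%, 58.0% and 53.7%; median 3572, 3073.5, 3316 and 5642 UMIs per cell). Core microglia rose as well, at 94.7, 108, 728 and 1071 CPM. Few cells held most of these UMIs: 12 and 23 microglia on day 5 and 19 and 22 on day 14 had 10 or more Ccl5 UMIs, and they held 56.5%, 62.8%, 70.6% and 79.6% of the gate's Ccl5. Other CC chemokine genes also rose, 3 of the 9 tested, Ccl6 (1.05 ± 0.10), Ccl9 (0.79 ± 0.15) and, at under 50 CPM, Ccl22 (3.33 ± 0.53), the last a chemokine of mature dendritic cells, with a median over the 9 of 1.05 against 0.00 over all genes (-0.001). Irf7 (2.26) and Irf1 (1.06), interferon regulators that are known to act on Ccl5, rose, as 2 of 13 genes of their list, and no early response gene of 11 passed.

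Whether Ccl5 in microglia is RNA from lymphocytes was examined in several ways. B cells, which should lack Ccl5, had a Ccl5 UMI in 0%, 6.12%, 6.22% and 7.14% of cells at 1000 UMIs (median 1377, 1188, 1923 and 2063.5 UMIs per cell before thinning). On day 5 the microglial shares were 7.78% and 5.84%, above the B cells of replicate 1 and below those of replicate 2. On day 14, 33.7% and 30.5% stood above the B cells of both libraries. Free RNA of 1 source keeps its genes in 1 ratio, and the ratio of Ccl5 to Nkg7, a gene of cytotoxic granules, was 4.92, 3.59, 2.11 and 1.27 in NK cells and 5.38, 4.67, 3.55 and 2.24 in T cells. It was 29.4, 29.4, 51.8 and 14.7 in microglia, above both lymphocyte types in every library. Gates with little Ccl5 stood above both on day 14 too, on few Nkg7 UMIs: neutrophils at 5.5 and 5.0, plasmacytoid dendritic cells at 6.33 and 14.0. B cells stood at 1.75 and 17.4 on that day. Free RNA of sources other than lymphocytes need not keep the lymphocyte ratio, and its part was not tested. Other ratios of microglia stood clear of the lymphocytes on day 14 only. Ccl5 per UMI of Gzma was 28.2, 44.7, 104 and 98.1 in microglia against 26.9, 71.4, 41.2 and 13.4 in T cells, and Ccl5 per UMI of the lymphocyte panel was 0.866, 0.903, 3.76 and 3.58 against 1.00, 0.81, 0.474 and 0.285 in NK cells. Microglia with no UMI of the 16 lymphocyte panel genes held Ccl5 at 141, 88.8, 797 and 756 CPM. Leaving out also every cell with a UMI of Fscn1, Cacnb3 or Ccr7, genes of mature dendritic cells, gave 57.7, 98.5, 781 and 882 CPM in 544, 868, 96 and 61 cells and a log2 change of 3.55 ± 0.22 (edgeR adjusted p = 1.75e-09).

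UMIs of the lymphocyte panel did move with the day in the microglia gate. The panel is not particular to NK and T cells. On day 5 it summed to 768 and 660 CPM in dendritic cells, with Nkg7 at 2.7 and 1.7 CPM. In B cells it summed to 1041, 782, 1448 and 1302 CPM. In microglia the panel summed to 150 and 147 CPM on day 5 and to 248 and 226 CPM on day 14. Of its 13 tested genes 9 rose and Klrd1 fell, and their median log2 change was 3.40, above the 2.87 of Ccl5. Nkg7, a panel gene, stood at 4.4, 4.5, 18.0 and 55.0 CPM. T cell markers summed to 1.66, 3.62, 34.3 and 22.9 CPM, and monocyte markers went from 1021 and 874 to 1549 and 2119 CPM. Of the 12, 23, 19 and 22 Ccl5-rich microglia, 7, 11, 4 and 7 had 3 or more UMIs of Fscn1, Cacnb3 and Ccr7, and 0, 8, 6 and 8 had no UMI of either these or the panel. The part of captured cell pairs in the remaining values was not tested.

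**Figure D4:**
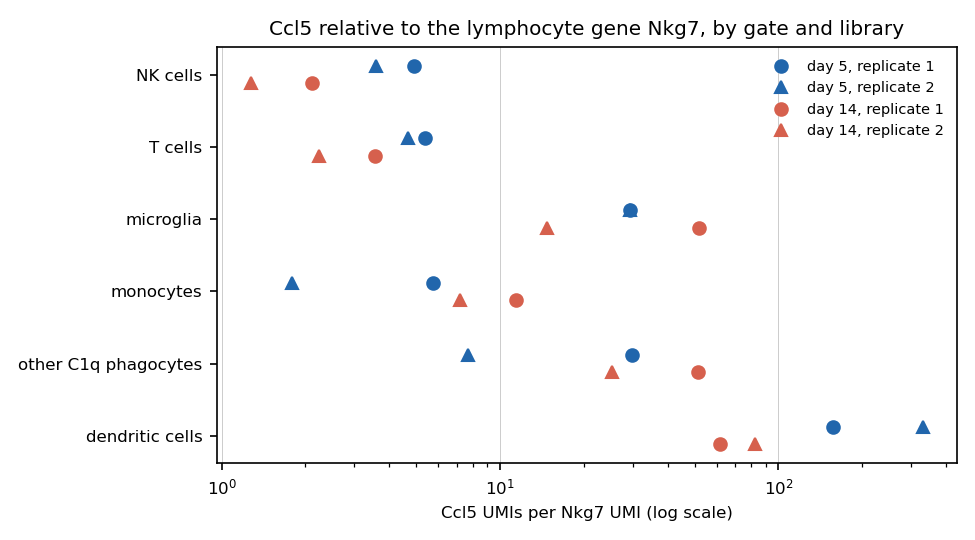
Ccl5 UMIs per Nkg7 UMI (horizontal axis, log scale) in the summed cells of 6 gates, with 1 point per library. Neutrophils, plasmacytoid dendritic cells and B cells are not drawn. Microglia lie at 14.7 to 51.8, to the right of NK cells at 1.27 to 4.92 and T cells at 2.24 to 5.38, and dendritic cells lie farther right still.

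Xcl1 UMIs in the microglia gate lay in 2, 5, 6 and 7 cells, and on day 14 most lay in 1 cell of each library. The Xcl1 level was 0.37 and 0.90 CPM on day 5 and 15.3 and 126 CPM on day 14, and the log2 change of 6.75 ± 1.00 passed (edgeR adjusted p = 0.0120). In day 14 replicate 1, 1 cell held 12 of the 17 Xcl1 UMIs. In day 14 replicate 2, 131 of the 137 Xcl1 UMIs lay in 1 cell with 16209 UMIs, among them 93 of the lymphocyte panel, 36 of NK genes and 47 of microglia genes. In microglia without a panel UMI the level was 0.28, 0.19, 5.42 and 9.08 CPM, and at most 1.13% of thinned microglia had an Xcl1 UMI. Monocytes showed the same in day 5 replicate 1, where 61 of 62 Xcl1 UMIs lay in 1 cell with 34 panel UMIs. Their Xcl1 levels were 46.5, 0.86, 42.0 and 33.0 CPM, and the day difference did not pass (0.71, edgeR adjusted p = 0.634). Neutrophils and plasmacytoid dendritic cells had no Xcl1 UMI in any library. In neutrophils, the limit that a count of 0 allows (3 UMIs per gate and library) lay between 5.97 and 34.7 CPM, for counting error only.

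The day changes of NK cells and microglia were compared directly by an interaction term with library as a block, in which 2.42% of 9035 genes passed. The NK minus microglia difference of the day effect was -4.93 ± 0.14 for Ccl5 (edgeR adjusted p = 1.28e-270), -1.84 ± 0.17 for Ccl3 (edgeR adjusted p = 1.18e-22) and -1.52 ± 0.15 for Ccl4 (edgeR adjusted p = 1.71e-20). These p-values and SEs take their spread from all genes over 4 libraries. For Ccl3 the SE of the day change was 0.26 within NK cells and 0.31 within microglia, each above that of the difference. For Ccl4 these SEs were 0.16 and 0.27, and for Ccl5 0.19 and 0.12. The SEs and p-values of the differences thus do not measure the spread between the libraries of a day. DESeq2 gave adjusted p = 1.38e-77, 0.00536 and 0.00318 for the 3 differences. For Xcl1 the difference was -5.32 ± 0.34 (edgeR adjusted p = 6.15e-53), but without the cell richest in Xcl1 it was -2.12 (edgeR adjusted p = 0.0521). For T cells minus microglia, 1.59% of genes passed, among them Ccl5 at -3.62 ± 0.14 (edgeR adjusted p = 9.01e-147) and Xcl1 at -4.29 ± 0.52 (edgeR adjusted p = 3.73e-12), the latter again only with the richest cells in. Ccl3 (0.40, edgeR adjusted p = 0.946) and Ccl4 (-0.01, edgeR adjusted p = 1) did not pass.

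**Figure D5:**
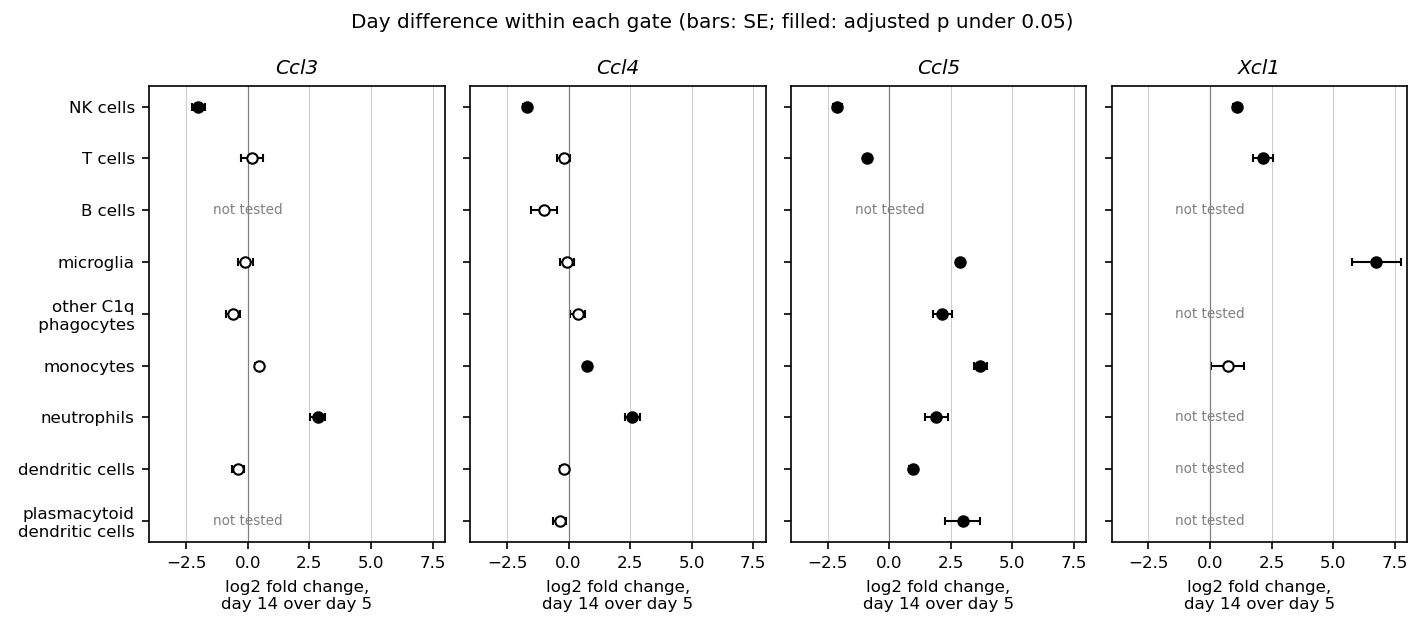
Log2 fold change of day 14 over day 5 (horizontal axis) with its standard error in each gate (vertical axis), with filled points at an edgeR adjusted p under 0.05. Ccl5 lies at -2.12 in NK cells and at 2.87 in microglia, and Ccl3 and Ccl4 lie at 2.84 and 2.60 in neutrophils.

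Neutrophils, short-lived granulocytes that enter the infarct early, had the highest Ccl3 and Ccl4 levels of the tested gates on day 14. Ccl3 stood at 823 and 462 CPM on day 5 against 4818 and 6141 CPM on day 14. Its log2 change was 2.84 ± 0.30 (edgeR adjusted p = 3.75e-04) where 18.3% of the 1886 genes tested passed. Ccl4 went from 1395 and 675 CPM to 7238 and 7652 CPM, 2.60 ± 0.32 (edgeR adjusted p = 9.18e-04). In thinned cells Ccl3 was found in 26.3% and 17.2% on day 5 and 84.6% and 73.9% on day 14, and Ccl4 in 26.3%, 17.2%, 79.5% and 73.9%. The median in cells with any went from 2 and 2 to 11 and 12 Ccl3 UMIs. The gate held 86, 158, 39 and 46 cells, and their share of all Ccl3 UMIs was 1.80%, 1.58%, 9.62% and 20.6%. The make-up of the gate differed between the days: its marker genes summed to 65960 and 89600 CPM on day 5 and to 8860 and 5319 CPM on day 14, with 2 of the 9 at 0 in day 14 replicate 2, and S100a8 stood at 115800, 149500, 39190 and 35220 CPM. In the same gate monocyte markers summed to 6908, 10320, 4563 and 6097 CPM, the last above the neutrophil markers of that library. The lymphocyte panel summed to 163, 217, 521 and 603 CPM, and microglia markers to 343, 227, 382 and 245 CPM. The part of this make-up in the Ccl3 and Ccl4 values was not tested.

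With the chemokines, 6 of 10 tested NF-kappa B and interferon regulators rose in neutrophils, among them Irf7 (2.89), Relb (2.15) and Tnf (2.09). The median of that list was 1.15 against -0.04 over all genes (-0.035). Of 10 early response genes 5 rose, led by Atf3 (1.89), Dusp1 (1.49) and Zfp36 (1.43), the last of which encodes a protein that destabilises chemokine and cytokine transcripts. Ccl5 in neutrophils was low, at 21.8, 21.9, 127 and 87.4 CPM, and its call (1.91 ± 0.48, edgeR adjusted p = 0.0207) was lost whenever a library was left out.

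The other myeloid gates shared the rise of Ccl5 and differed in Ccl3 and Ccl4. In monocytes Ccl5 went from 34.5 and 52.4 CPM to 635 and 393 CPM, 3.70 ± 0.25 (edgeR adjusted p = 1.84e-05) where 6.68% of genes passed. Only 14.0% and 15.3% of thinned day 14 monocytes had a Ccl5 UMI. The lymphocyte panel went from 122 and 140 to 434 and 335 CPM there, with 9 of 10 tested panel genes raised and a median log2 change of 3.03. Monocyte Ccl5 per Nkg7 UMI, 5.75, 1.79, 11.5 and 7.18, was below the lymphocytes' ratio in day 5 replicate 2 and above it in the other 3 libraries. Ccl4 also rose in monocytes, from 411 and 387 to 663 and 573 CPM (0.77 ± 0.13, edgeR adjusted p = 0.00495), and Ccl3 did not pass (0.44, edgeR adjusted p = 0.116). In C1q phagocytes that failed the microglia gate Ccl5 went from 275 and 96.9 to 1181 and 454 CPM (2.15 ± 0.39, edgeR adjusted p = 0.00124, with 5.28% of genes passing; DESeq2 adjusted p = 0.533). Neither Ccl3 (-0.59, edgeR adjusted p = 0.35) nor Ccl4 (0.36, edgeR adjusted p = 0.659) passed there. Plasmacytoid dendritic cells, the main makers of type I interferon, held Ccl4 at 1675, 3805, 2434 and 1664 CPM with no difference past the test (-0.36, edgeR adjusted p = 0.674, with 2.34% of genes passing), and 43.8% to 61.8% of them had a Ccl4 UMI at 1000 UMIs. Their Ccl5, at 12.5, 8.75, 77.0 and 93.5 CPM, passed (2.98 ± 0.71, edgeR adjusted p = 0.0303) at a level near that of the B cells, and the call was lost with the replicate block and in most other alternatives.

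Dendritic cells, which present antigen to T cells, held Ccl5 at 429 and 559 CPM on day 5 and 1017 and 832 CPM on day 14 (0.94 ± 0.13, edgeR adjusted p = 4.00e-04, with 10.4% of genes passing). Under the first gating rule the adjusted p was 0.189. Ccl3 (-0.39, edgeR adjusted p = 0.393) and Ccl4 (-0.19, edgeR adjusted p = 0.531) did not pass. A few cells held most of the Ccl5. Cells of the dendritic gate or of no gate with 5 or more UMIs of Fscn1, Cacnb3 and Ccr7 (23, 26, 60 and 92 cells), a set formed after the values were seen, held Ccl5 at 14650, 12250, 9968 and 8404 CPM. They carried 13%, 11.8%, 13.2% and 23.6% of all Ccl5 UMIs of their libraries, and 87.0% to 100% of them had a Ccl5 UMI. Nkg7 in them was at 0, 0, 23.3 and 8.82 CPM and Cd3e at 0, 0, 7.75 and 2.20 CPM, against 501 to 1579 CPM of Ccl22, a chemokine of mature dendritic cells. The other dendritic cells held Ccl5 at 112, 94.9, 332 and 180 CPM. The lymphocyte panel summed to 756, 487, 333 and 415 CPM in the chosen cells, and 12 of 23, 18 of 26, 41 of 60 and 57 of 92 of them had 0 or 1 panel UMI; the part of lymphocyte RNA in their Ccl5 was not tested.

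In order of level over the gates on day 14, with the Fscn1, Cacnb3 and Ccr7 cells left out as no gate of their own, Ccl5 ran from the T and NK cells, which overlapped, down to dendritic cells, microglia and C1q phagocytes, which overlapped, then monocytes, which overlapped the C1q phagocytes, and last neutrophils and plasmacytoid dendritic cells. B cells spread from below these (55.5 CPM) to within the range of monocytes (412 CPM), the higher value with 72 of its 87 UMIs in 1 cell. The Fscn1, Cacnb3 and Ccr7 cells, at a mean of 9186 CPM of Ccl5 on day 14, stood above every gate in this order. On day 5 NK cells were above T cells without overlap. Ccl3 on day 14 ran from neutrophils to microglia without overlap, and from there to C1q phagocytes, monocytes and NK cells with overlaps. For Ccl4 on day 14, neutrophils came before plasmacytoid dendritic cells and microglia, which overlapped, and the lowest were T and B cells. For Xcl1 the order was NK cells, then T cells, on both days and without overlap.

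The receptor genes reported here lay in myeloid cells for the most part. Ccr1, which binds Ccl3 and Ccl5, rose in neutrophils from 262 and 173 to 637 and 646 CPM (1.31 ± 0.26, edgeR adjusted p = 0.00843). It fell in dendritic cells from 250 and 232 to 64.6 and 79.5 CPM (-1.68 ± 0.14, edgeR adjusted p = 5.40e-06). Xcr1, the receptor of Xcl1, was at 33.6, 76.7, 83.6 and 107 CPM in dendritic cells, where it was among the gate genes, and its change did not pass (0.89 ± 0.27, edgeR adjusted p = 0.0531). Elsewhere it was at most 10.8 CPM. Ccr3, which binds Ccl5, reached at most 17.5 CPM in a gate of a library, and Ackr2, a scavenger of CC chemokines, 4.74 CPM.

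Over 36 sums of a gate in a library, which share libraries and differ in depth, Ccl3 and Ccl4 followed each other (Pearson r = 0.727 of log2(CPM + 1)), as did Ccl5 and Xcl1 (r = 0.778), while Ccl3 and Ccl5 did not (r = 0.063). Among 5951 genes the closest to Ccl3 were Cd9 (0.884), Fcgr3 (0.825) and Hk3 (0.817). Closest to Ccl4 were Tyrobp (0.86), Tmbim6 (0.77) and Gng12 (0.769). Ccl5 was closest to AW112010 (0.894), Ms4a4b (0.867) and Tnfrsf9 (0.835), and Xcl1 to Klra7 (0.92), which is an NK gate gene, Gzmb (0.918) and Klrc1 (0.915). These correlations mostly reflect which gates carry a gene and are given as a description.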

How the data were processed

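The authors deposited raw UMI counts per gene and cell for each library; the tools named per the submitters' processing notes are Cell Ranger 3.0.1 and Seurat 2.3.4, with build GRCm38 (mm10). Day 5 matrix headers name the software and day 14 headers do not, so a difference in processing cannot be told apart from day. Cells with 200 or more genes and at most 10% mitochondrial UMIs were assigned by marker gates, and UMIs were summed per gate and library. No doublet caller was run. Lymphocytes that met another gate besides that of monocytes, or had over 2% of UMIs from the phagocyte panel, were set aside as mixed. The gating rule was revised after gate overlaps were seen, not member values: an NK cell also needed a UMI of Ncr1, Klrb1c, Klre1, Klra4, Klra7 or Klra8, and monocyte genes no longer made a lymphocyte mixed, which took mixed cells from 2140 to 802. Sums were tested with edgeR 4.0.16 (TMM, filter on low counts, quasi-likelihood, Benjamini-Hochberg over all genes tested) in R 4.3.3, for the 9 gates with 20 or more cells in every library. Each edgeR SE is the absolute log2 change over the square root of the F statistic of its test. Single values were compared by exact permutation tests, two-sided. Thinning drew 1000 UMIs per cell. Members and gene lists were chosen with earlier results of these data known. Besides the members and receptors, of which 1 is not reported here, the named genes are up to 3 per list and gate that passed at 50 CPM or more, by absolute log2 change, and the 3 with the highest correlation to each member. On data simulated for NK cells (5036 genes), 37% of changes of 1 and 88% of changes of 2 on the log2 scale were recovered. Alternatives: DESeq2 1.42.0, other filters, gates and thinning, a replicate block and leaving out each library.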

Additional observations from a re-analysis of the deposited data

Results flagged for a closer look

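The day effect differed between cell types by a test of the difference itself (an interaction term in edgeR with library as a block, adjusted over 9035 genes) in 6 cases. In NK cells minus microglia the difference of the log2 day effects was -4.93 for Ccl5, which fell in NK cells and rose in microglia, -1.84 for Ccl3 and -1.52 for Ccl4, which fell in NK cells and did not pass in microglia. For Xcl1 it was -5.32, and for T cells minus microglia -4.29; both rest on the microglia gate, where 131 of 137 Xcl1 UMIs of day 14 replicate 2 lay in 1 cell. For Ccl5 in T cells minus microglia it was -3.62. The Ccl3, Ccl4 and Ccl5 differences between NK cells and microglia, and that of Ccl5 between T cells and microglia, kept their direction and passed under every alternative run.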

How the results depend on the processing

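Of the recomputed member tests, 464 kept direction and side of the threshold, 30 changed direction, 12 newly passed and 23 no longer passed; 4 that DESeq2 gave no adjusted p are not counted. All 4 NK cell changes kept theirs in 12 alternatives each (Ccl3 -2.69 to -1.49, Ccl4 -1.91 to -1.34, Ccl5 -2.52 to -1.42, Xcl1 0.79 to 1.53), as did Ccl5 in microglia (2.63 to 3.55) and Ccl3 (2.48 to 3.12) and Ccl4 (2.16 to 3.0) in neutrophils. Same-numbered replicates did not deviate together (r from -0.277 to 0.025); the replicate block gave -2.14 for Ccl5 in NK cells and changed no call of a member in NK cells, T cells or microglia. The cause of the following was not tested. Leaving out each library in turn gave these ranges: in T cells -0.26 to 0.0099 (Ccl4), -0.995 to -0.65 (Ccl5) and 1.54 to 2.56 (Xcl1); in B cells -1.57 to 0.50 (Ccl4); in microglia -0.80 to 0.34 (Ccl3) and -0.63 to 0.33 (Ccl4); in plasmacytoid dendritic cells -0.78 to 0.39 (Ccl4); in dendritic cells -0.86 to 0.22 (Ccl3) and -0.46 to 0.031 (Ccl4); in C1q phagocytes -1.37 to 0.011 (Ccl3) and -0.55 to 0.98 (Ccl4); in monocytes -0.21 to 5.43 (Xcl1). For T cells minus microglia they were -0.36 to 1.38 (Ccl3), -0.50 to 0.66 (Ccl4) and -4.90 to -2.78 (Xcl1). With mixed cells kept, T cell changes were -1.99 (Ccl3), -2.04 (Ccl4) and 0.19 (Ccl5), their differences from microglia -1.80 (Ccl3) and -1.92 (Ccl4), and the NK and T cell share of Xcl1 moved by 3.31 points. In cells without a UMI of the other panel, T cell changes were -0.14 (Ccl3), 0.72 (Ccl4), -0.59 (Ccl5) and 2.89 (Xcl1), differences from microglia 1.00 (Ccl4) and -1.43 (Xcl1), and Ccl4 in dendritic cells 0.040. The first gating rule gave 1.75 for Xcl1 in T cells, 0.026 and 0.070 for Ccl3 and Ccl4 in dendritic cells, and share changes of -21.2 points (Ccl5) and -2.87 points (Xcl1). Without the richest cells, the differences from microglia were -2.12 (Xcl1, NK cells), -1.01 (Xcl1, T cells) and 0.15 (Ccl4, T cells). Core microglia gave 0.070 for Ccl3 and, against T cells, -2.66 for Xcl1. Microglia without lymphocyte or mature dendritic cell UMIs gave 0.16 for Ccl4, and -2.19 (NK cells) and -1.16 (T cells) for the Xcl1 difference. No low-count filter gave 0.14 for Ccl4 in T cells minus microglia, and stricter gates 0.17 for Ccl4 in B cells. Day 14 minus day 5 shares of cells with a UMI were, without thinning, -25.3 (Ccl3), -23.4 (Ccl4), -8.91 (Ccl5) and 48.6 points (Xcl1) in NK cells, 41.3 (Ccl5) in microglia, 15.2 (Xcl1) in T cells and 47.4 (Ccl4) in neutrophils. At 500 UMIs they were -19.1 (Ccl3), -26.9 (Ccl5) and 28.8 (Xcl1) in NK cells, -4.82 (Ccl3) and 18.1 (Ccl5) in microglia and 43.8 (Ccl4) in neutrophils. Counts of genes called moved more: NK cells 270 (160 to 458), T cells 40 (5 to 942), microglia 280 (112 to 716), neutrophils 345 (25 to 466), dendritic cells 813 (180 to 1141), monocytes 509 (238 to 893), C1q phagocytes 326 (118 to 470), B cells 43 (13 to 467), plasmacytoid dendritic cells 49 (20 to 102), the day effect in NK cells minus microglia 219 (82 to 519) and in T cells minus microglia 144 (46 to 636). Depth limits Xcl1 most, with 268 and 345 UMIs in the day 5 libraries; it could not be tested in most myeloid gates.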

Other observations

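In day 5 replicate 2, 4 cells met the basophil or mast cell gate, and they held 97 Ccl3 UMIs (7398 CPM) and 392 Ccl4 UMIs (29900 CPM); 3 of the 4 had a UMI of each, an exact binomial interval of 19.4% to 99.4%. No other library had such a cell. B cells held 72 of the 87 Ccl5 UMIs of day 14 replicate 2 in 1 cell. Cst7, which encodes cystatin F, stood at 239 and 258 CPM in day 5 microglia and at 1442 and 1339 CPM in day 14 microglia. In NK cells the co-detection of Ccl3 and Ccl4 was 82.7% and 74.1% of cells with a Ccl3 UMI on day 5 and 62.7% and 68.8% on day 14, and in neutrophils it was 53.1%, 38.6%, 88.6% and 76.9%, unthinned. Ccl22 rose in dendritic cells from 48.7 and 32.0 to 136 and 154 CPM (1.87 ± 0.18, edgeR adjusted p = 2.21e-05).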
